A study of Mus musculus with 6 samples.

Results

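Imprinted genes are transcribed mainly from the copy inherited from a given parent. The 10 described here, H19, Igf2, Dlk1, Peg3, Plagl1, Mest, Meg3, Grb10, Airn and Igf2r, belong to a group whose transcripts are abundant in growing organs and decline as growth slows after birth. They were chosen by name, with earlier results of these data known, as were the gene lists compared below. Every probe set that the array annotation gives to any of the 10 was taken. That yielded 36 probe sets for 10 of the 19324 genes named on the array. Of the 36 probe sets, 34 name a member alone, 1 names H19 together with Mir675, the microRNA gene within it, and 1 names Airn together with Igf2r. H19 has no probe set of its own, so its values are those of the shared one. It had no place in the test over 18193 genes, which held the other 9 members.

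The samples were whole kidneys of male mice aged 2 to 3 months, 3 wild-type (WT) and 3 lacking the nuclear receptor ERRα (ERRa KO), on 1 Affymetrix expression array each. ERRα, encoded by Esrra, is an orphan receptor that regulates genes of mitochondrial energy metabolism. Per the labels the mice had a standard diet, and the left and right kidneys of a mouse were ground together, so an array reads every cell type of the organ at once. The age is a range shared by both genotypes, with no age per mouse, and the strain and the part of Esrra removed are not given in the labels.

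Some members encode growth regulators that act against each other. Igf2 is a growth factor, Igf2r is the receptor that takes it up for degradation, and Grb10 is an adaptor that restrains insulin and IGF signalling. Igf2 and H19 share a chromosomal domain and its enhancers, Dlk1 and Meg3 share another, and Airn is a long noncoding RNA whose transcription through Igf2r silences that gene on the paternal copy in mice. Plagl1 and Peg3 encode zinc finger proteins, and Plagl1 is known in mice as a regulator of other imprinted genes.

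Values are log2 expression values made with RMA, and a difference is the ERRa KO mean less the WT mean on that scale. The brightness of a probe set depends on its probes as well as on the transcript, so levels are not ordered between genes. The array medians lay between 5.01 and 5.05, and the lowest value on an array between 2.25 and 2.33. The brighter Esrra probe set read 9.43, 9.43 and 9.52 in WT and 6.66, 6.51 and 6.41 in ERRa KO kidneys, which checks the genotype labels used. The authors' own table carries the same values under exchanged genotype heads for all 45101 probe sets. Its fold change column follows the labels used here, and under the exchanged heads every direction below would turn. The tissue label was checked on 7 measured kidney markers, whose mean level was 11.5 to 11.7 in WT and 11.5 to 11.7 in ERRa KO arrays. Of these Umod, the main protein gene of the thick ascending limb, had the smallest p (change -0.29, limma unadjusted p = 0.00422 in the gene fit), followed by Lrp2, which encodes megalin, at -0.12. ERRa KO replicate 3 stood apart: 8 of 9 measured liver markers read highest there, and Alb, which encodes albumin, read 12.07 there against 6.48 to 6.80 on the other 5 arrays. Members were therefore also compared without it.

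The 3 members whose brightest probe sets had all ERRa KO values below all WT values were Airn, Peg3 and Grb10, out of 9, while groups did not overlap in 18.7% of all genes. Their promoter windows, with that of Igf2r, which Airn crosses on the opposite strand, are shown as the sequence context of these results. Each is the 250 bases before the RefSeq start on GRCm38.p6, written along the gene's strand, and for Grb10 the first of its 2 listed starts. Capitals mark a match to GGGGCCCC, the site bound by the Plagl1 protein. The motif bound by ERR receptors, AAGGTCA, was sought as well, both motifs on both strands, and the motifs do not overlap each other.
Airn (chr17:12741061-12741310, + strand): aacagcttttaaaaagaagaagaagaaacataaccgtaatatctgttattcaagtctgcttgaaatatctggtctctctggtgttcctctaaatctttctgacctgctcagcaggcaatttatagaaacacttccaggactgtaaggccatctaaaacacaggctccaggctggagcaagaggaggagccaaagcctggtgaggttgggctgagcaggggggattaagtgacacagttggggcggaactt
Igf2r (chr17:12769707-12769956, - strand): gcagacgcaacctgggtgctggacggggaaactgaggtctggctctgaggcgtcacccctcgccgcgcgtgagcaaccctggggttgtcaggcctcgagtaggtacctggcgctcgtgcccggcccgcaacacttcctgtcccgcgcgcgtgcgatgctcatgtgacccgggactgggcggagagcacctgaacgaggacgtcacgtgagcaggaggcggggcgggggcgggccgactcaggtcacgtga
Peg3 (chr7:6730420-6730669, - strand): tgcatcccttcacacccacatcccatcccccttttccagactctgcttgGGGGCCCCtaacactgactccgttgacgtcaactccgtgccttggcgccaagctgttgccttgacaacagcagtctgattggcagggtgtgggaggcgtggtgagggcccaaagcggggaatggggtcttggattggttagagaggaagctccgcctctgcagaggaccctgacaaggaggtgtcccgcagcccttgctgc
Grb10 (chr11:12037421-12037670, - strand): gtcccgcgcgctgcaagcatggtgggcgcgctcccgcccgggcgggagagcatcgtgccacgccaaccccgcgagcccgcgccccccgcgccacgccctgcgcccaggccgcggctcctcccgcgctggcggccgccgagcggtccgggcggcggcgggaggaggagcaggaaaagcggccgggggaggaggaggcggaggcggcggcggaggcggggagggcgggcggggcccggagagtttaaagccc
The Peg3 window holds GGGGCCCC once, beginning 201 bases before the start. That motif lies in 0.884% of the 32817 RefSeq promoter windows of the same length, and in 1 of the 16 windows of the 9 members that have any. The ERR motif lies in 4.08% of all windows and in 1 of the 16, the window of the second Meg3 start, 141 bases before it and on the opposite strand. The Airn window holds 2 CG dinucleotides, the Peg3 window 8, the Igf2r window 27 and the Grb10 window 40, against a median of 6 over all windows.

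Airn, the noncoding RNA of the Igf2r domain, was the member that passed the gene test, through the brightest of its 5 own probe sets. Its brightest probe set read 8.12, 8.23 and 8.23 in WT kidneys and 7.52, 7.59 and 7.20 in ERRa KO kidneys. All 3 ERRa KO values were below all WT values, and ERRa KO replicate 3 was the lowest. The mean was 8.19 ± 0.06 in WT against 7.44 ± 0.21 in ERRa KO kidneys (SD, n = 3 each), a 1.69-fold lower level (log2 change -0.76, SE 0.10, 95% interval -0.998 to -0.52). In limma over 18193 genes the adjusted p was 0.0337, and Airn ranked 55 of all genes by p. It was the only 1 of the 9 members to pass, where 0.495% of all genes passed. In ground whole kidney, fewer cells of a type and less RNA per cell cannot be told apart.

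The Airn call was close to the threshold and came from a single probe set. In the fit over all 45037 probe sets the same values gave an adjusted p of 0.0507. The 4 other probe sets of Airn alone were dimmer, with means from 3.03 to 5.21, and their changes were -0.10, -0.02, 0.06 and 0.04. Groups overlapped in each of these 4, and also in the probe set shared with Igf2r (4.29 ± 0.11 in WT against 4.23 ± 0.07, SD, n = 3 each; change -0.07, limma unadjusted p = 0.411). Averaged over its 5 probe sets Airn read -0.15 (limma adjusted p = 0.418). Leaving out ERRa KO replicate 3 gave -0.64 (limma adjusted p = 0.0332), while leaving out any other array ended the call, with adjusted p from 0.0757 without ERRa KO replicate 2 to 0.142 without WT replicate 3. The call ended as well with the replicate number as a block (limma adjusted p = 0.0908). It also ended by the equal-variance test (Benjamini-Hochberg adjusted p = 0.243), which called 0 of all genes. It held with array weights (limma adjusted p = 0.0277) and with renewed quantile normalization (0.0290). A variance trend (0.0079) and a limit to genes above the median level (0.0148) kept it too. The stretch of Airn that each probe set reads was not examined.

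Igf2r, the receptor gene that Airn overlaps, showed no difference past the test. Its brighter probe set read 9.99, 10.02 and 9.98 in WT and 10.09, 10.05 and 9.97 in ERRa KO kidneys. The groups overlapped, and the change was 0.04 (SE 0.06, 95% interval -0.09 to 0.17, limma adjusted p = 0.829). The other probe set of Igf2r alone gave 0.08 (SE 0.08, limma unadjusted p = 0.342). In the brighter probe set the overlap came from ERRa KO replicate 3 alone. Without that array its change was 0.07 (limma adjusted p = 0.681). Within each array Igf2r lay above Airn by 1.87, 1.79 and 1.74 in WT and by 2.57, 2.46 and 2.77 in ERRa KO kidneys. This gap mixes the brightness of 2 probe sets, so only its shift between genotypes can be read. The mean gap was 1.80 ± 0.07 in WT and 2.60 ± 0.16 in ERRa KO (SD, n = 3 each). Its shift largely restates the fall of the brightest Airn probe set and is no separate result. Of the other genes that the annotation places within Airn, Mas1, which encodes a receptor for angiotensin peptides, was the only measured one, at 4.77 in WT and 4.61 in ERRa KO (change -0.17, limma adjusted p = 0.518). Slc22a2, an organic cation transporter gene near Igf2r, read 11.66 and 11.63 (change -0.04, limma adjusted p = 0.835).

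**Figure D1:**
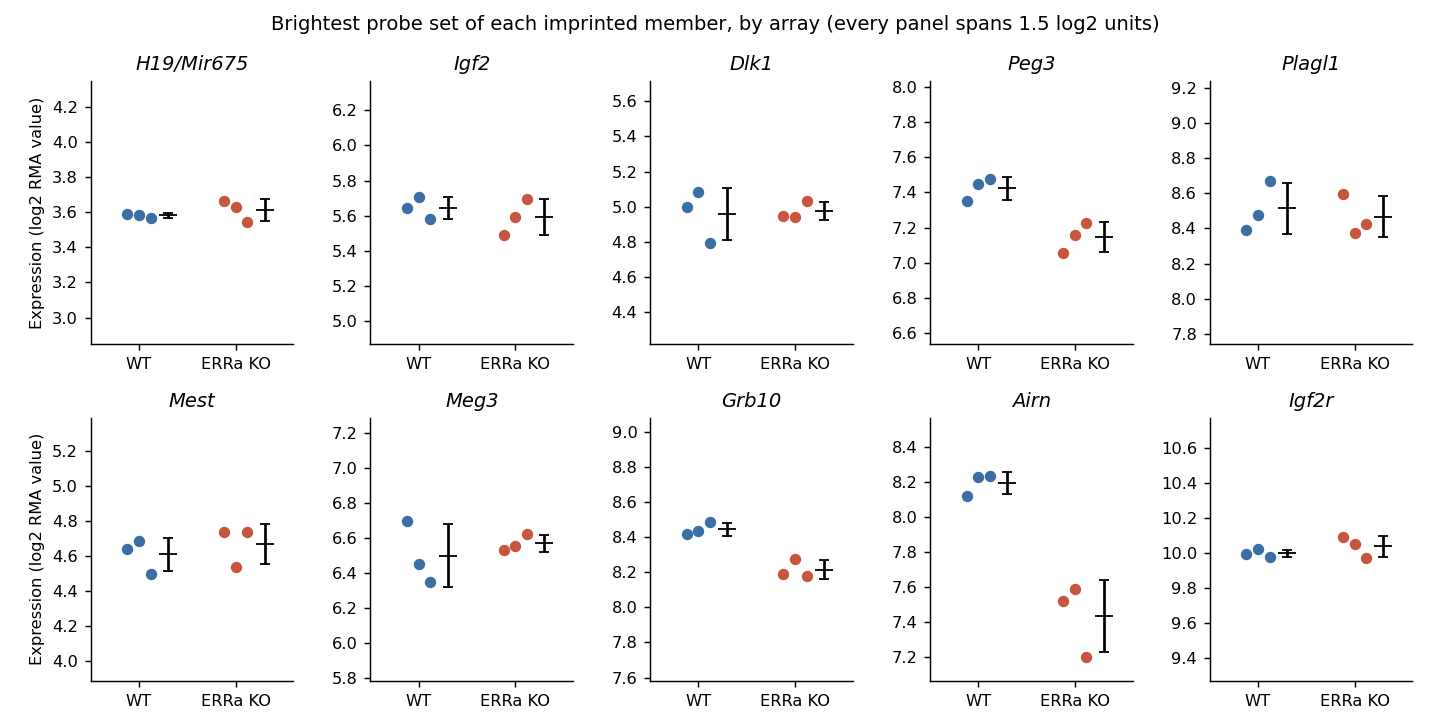
Log2 RMA values of the brightest probe set of each member (for H19, the probe set shared with Mir675) on 3 WT (blue) and 3 ERRa KO (red) arrays, with the mean and SD as black bars; every panel spans the same range of log2 units around its own mean. The groups stand apart for Airn, Peg3 and Grb10 and overlap for the other 7.

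Peg3, which encodes a zinc finger protein of mesenchymal and progenitor cells, read lower in both of its brightest probe sets but did not pass the test. The brightest read 7.35, 7.45 and 7.48 in WT and 7.05, 7.16 and 7.23 in ERRa KO kidneys. No ERRa KO value reached the lowest WT value, and the change was -0.28 (SE 0.07, 95% interval -0.44 to -0.12, limma adjusted p = 0.149). The next brightest read 6.95, 6.84 and 7.07 in WT and 6.55, 6.74 and 6.83 in ERRa KO kidneys. There the groups were only just apart, with a change of -0.25 (SE 0.09, limma unadjusted p = 0.028). The 3 dimmer probe sets gave 0.0011, 0.06 and 0.10 with overlapping groups, so the average over all 5 was -0.07 (limma adjusted p = 0.657).

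Grb10, the adaptor that restrains insulin and IGF receptors, gave a change close to that of Peg3 in its brightest probe set only. Its brightest probe set read 8.42, 8.43 and 8.49 in WT and 8.19, 8.28 and 8.18 in ERRa KO kidneys. The groups did not overlap, and the change was -0.23 (SE 0.06, 95% interval -0.36 to -0.10, limma adjusted p = 0.154). The other probe sets of Grb10 disagreed in sign, with 0.11 (SE 0.08) and -0.25 (SE 0.15), and both had overlapping groups. Averaged over its 3 probe sets Grb10 read -0.12 (limma adjusted p = 0.588). Without ERRa KO replicate 3, Peg3 read -0.32 (limma adjusted p = 0.156) and Grb10 -0.21 (limma adjusted p = 0.249). By p, Peg3 ranked 432 and Grb10 463 of 18193 genes, while unadjusted p was under 0.05 in 12.4% of all genes.

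The members best known from the fetal and young kidney showed no difference past the test. Igf2, the growth factor, read 5.64, 5.71 and 5.58 in WT and 5.49, 5.59 and 5.69 in ERRa KO kidneys in its brighter probe set. The groups overlapped, and the change was -0.05 (SE 0.07, 95% interval -0.22 to 0.11, limma adjusted p = 0.806). Without ERRa KO replicate 3 that change was -0.10 (limma adjusted p = 0.5996). Its dimmer probe set read 3.22, 3.32 and 3.18 in WT and 3.36, 3.34 and 3.59 in ERRa KO kidneys. Here the ERRa KO values were the higher ones, with the groups barely apart (change 0.19, SE 0.08, limma unadjusted p = 0.0501), at a level in the lowest 18.1% of probe sets. Igf2os, the antisense transcript of Igf2, read 4.72 in WT and 4.92 in ERRa KO (change 0.20, limma adjusted p = 0.271).

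The probe set shared by H19, the noncoding RNA next to Igf2, and Mir675 read 3.59, 3.58 and 3.57 in WT and 3.67, 3.63 and 3.55 in ERRa KO kidneys. The groups overlapped, with a change of 0.03 (SE 0.06, 95% interval -0.11 to 0.17, limma adjusted p = 0.888 over all probe sets). The overlap came from ERRa KO replicate 3 alone, and without that array the change was 0.07 (limma adjusted p = 0.764). The signal stood at percentile 25.1 of the array's probe sets, where RMA compresses differences.

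Dlk1, a membrane ligand of progenitor cells, and Meg3, the noncoding RNA of the same domain, did not pass the test either. The brighter Dlk1 probe set read 4.999, 5.08 and 4.79 in WT and 4.95, 4.94 and 5.03 in ERRa KO kidneys, with WT replicate 3 the lowest of all. The change was 0.02 (SE 0.08, 95% interval -0.18 to 0.21, limma adjusted p = 0.96). The dimmer one gave 0.17 (SE 0.07, limma unadjusted p = 0.0482) with groups that overlapped. Meg3 has the most probe sets, 11, of which 7 read higher and 4 lower in ERRa KO, from -0.19 to 0.09, and none had an unadjusted p under 0.05 in limma. Its brightest read 6.70, 6.45 and 6.35 in WT and 6.53, 6.55 and 6.63 in ERRa KO kidneys. The ERRa KO values lay inside the WT range, and the change was 0.07 (SE 0.09, 95% interval -0.14 to 0.28, limma adjusted p = 0.803).

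Plagl1, the zinc finger regulator of imprinted genes, read 8.39, 8.48 and 8.67 in WT and 8.60, 8.37 and 8.43 in ERRa KO kidneys in its brightest probe set. The groups overlapped, and the change was -0.05 (SE 0.09, 95% interval -0.26 to 0.17, limma adjusted p = 0.869). A dimmer probe set gave 0.24 (SE 0.10, limma unadjusted p = 0.0404), also with overlapping groups, and the third 0.0035. Mest, which encodes a hydrolase-like enzyme of growing tissue and fat, has 1 probe set, which read 4.64, 4.68 and 4.50 in WT and 4.73, 4.53 and 4.73 in ERRa KO kidneys. Values of both genotypes were interleaved (change 0.06, SE 0.08, 95% interval -0.13 to 0.25, limma adjusted p = 0.812).

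Of all 36 probe sets, 14 had a change below 0 and 22 above 0, where 49.1% of the array lay below 0. Their median change was 0.015, against 0.0025 over the whole array. Limma called none of them, where 0.111% of all probe sets were called, and 6 had an unadjusted p under 0.05, which is 16.7% of the members against 10.9% of the array. By the equal-variance test 3 of the 36 probe sets had an unadjusted p under 0.05, or 8.33% against 9.51% of the array. The groups did not overlap in 5 probe sets, 4 of them lower, or 13.9% against 16.5% of the array. All changes but that of the brightest Airn probe set were within 0.3. The authors' deposited table gives -0.76 with an unadjusted p of 0.0037 for that probe set, -0.28 with 0.0111 for Peg3 and -0.23 with 0.0035 for Grb10.

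**Figure D2:**
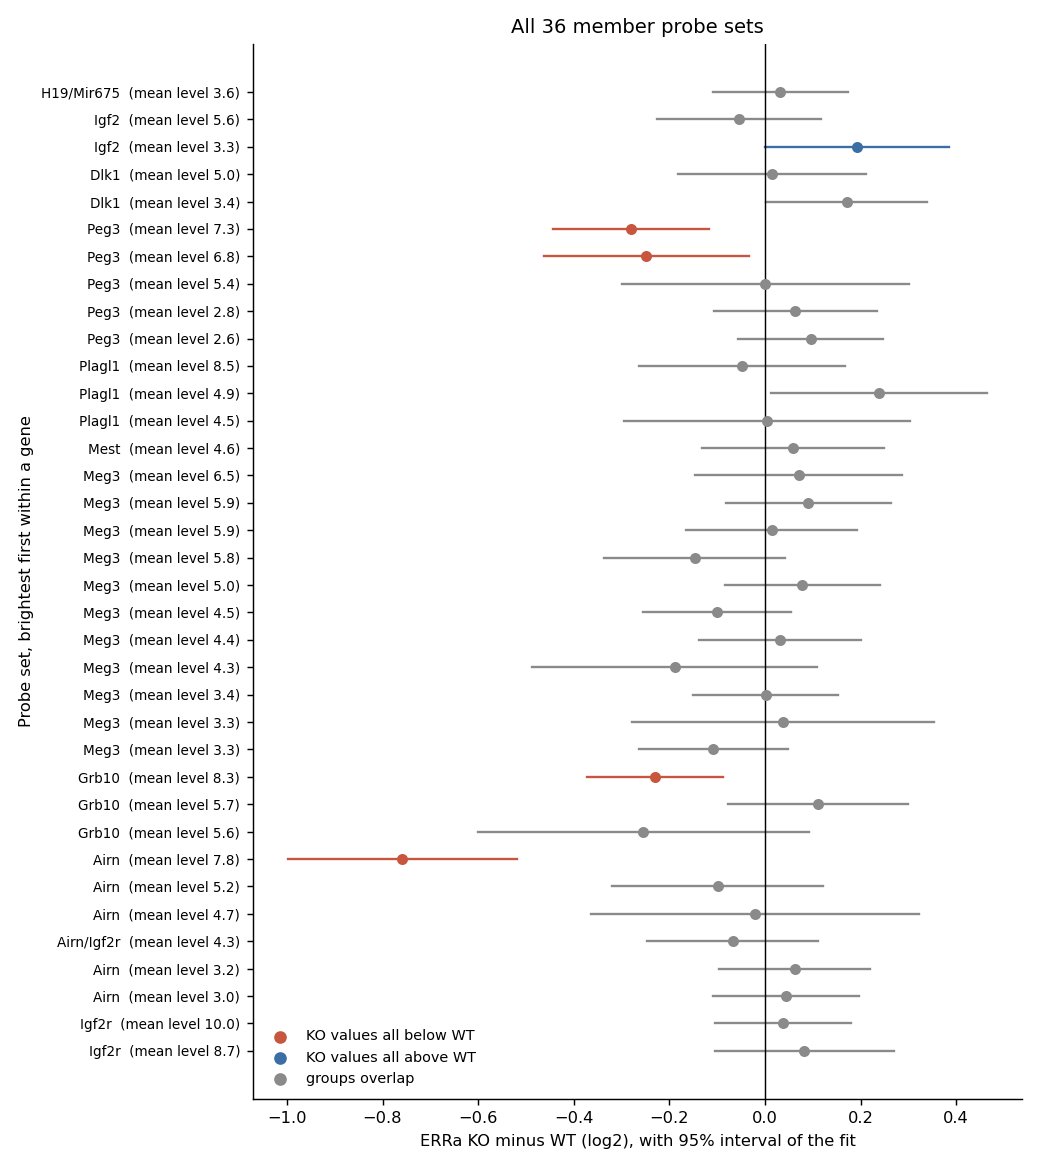
Log2 difference of ERRa KO from WT with its 95% interval for each of the 36 member probe sets, ordered by gene and by brightness within a gene; colour marks whether the 3 ERRa KO values lie all below, all above or among the WT values. The brightest Airn probe set, at -0.76, stands outside the range of -0.28 to 0.24 that holds the other 35.

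Among the 9 members in the gene fit, 5 read lower and 4 higher, where 47.4% of all 18193 genes read lower, and the median was -0.05 against 0.01 over all genes. Unadjusted p was under 0.05 for 3 of them, where it was for 12.4% of all genes, and these were the same 3 whose groups did not overlap, as in 18.7% of all genes.

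**Figure D3:**
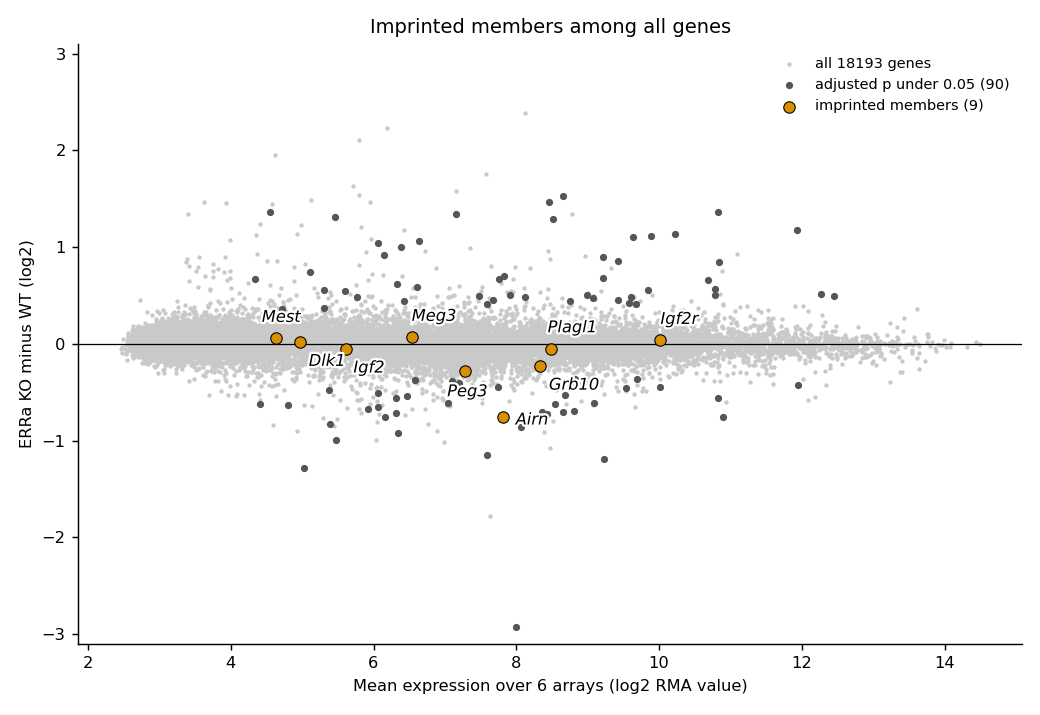
Change (ERRa KO minus WT, log2) against mean log2 RMA value over the 6 arrays for 18193 genes in grey, the 90 past the threshold in dark grey and the 9 members in orange. Airn lies among the called genes at -0.76 and the other members between -0.28 and 0.07.

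Other imprinted genes were read for comparison. Of 17 measured genes expressed from the paternal copy in at least some tissue, 12 read higher and 5 lower, with a median of 0.07. Limma called none of them, where 0.495% of all genes passed. Unadjusted p was under 0.05 for 2 of the 17, where it was for 12.4% of all genes. The 2 were Peg10, a retrotransposon-derived gene, at 0.23 (limma adjusted p = 0.283) and Nap1l5, related to histone chaperones, at 0.39 (limma adjusted p = 0.299). Of 20 measured genes expressed from the maternal copy in at least some tissue, 14 read higher and 6 lower, with a median of 0.04. Among them 4 of the higher and 1 of the lower ones had an unadjusted p under 0.05, where 12.4% of all genes did. The tetraspanin gene Cd81 rose, the only 1 to pass, where 0.495% of all genes passed. It read 11.97, 12.04 and 12.04 in WT and 12.53, 12.51 and 12.54 in ERRa KO kidneys, 2 tight groups well apart (change 0.51, SE 0.05, limma adjusted p = 0.0154). Named after their values were seen, Cdkn1c, an inhibitor of the cell cycle in the same domain as Cd81, read 0.37 (limma adjusted p = 0.116), and Kcnq1, a potassium channel gene of that domain, -0.42 (limma adjusted p = 0.0654). Chosen in the same way, Copg2, a coat protein gene that overlaps Mest, read 0.23 (limma adjusted p = 0.245), and Zim1, a neighbour of Peg3, 0.17 (limma adjusted p = 0.278). Slc38a4, an amino acid transporter gene also active in liver, read 6.02 in ERRa KO replicate 3 and 4.15 to 4.63 on the other arrays. Leaving out the members themselves, limma called 0 of 17 measured genes within 3 annotated genes of a member. Of these 17, 3 had an unadjusted p under 0.05, where 12.4% of all genes did.

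In the IGF axis, 7 of 14 measured genes read higher and 7 lower, with a median of 0.01, and none passed limma's threshold. The 4 with an unadjusted p under 0.05, where 12.4% of all genes had one, all read lower. Irs1, the insulin receptor substrate gene, read 8.57, 8.73 and 8.73 in WT and 8.45, 8.33 and 8.38 in ERRa KO kidneys, with the groups apart (change -0.29, SE 0.07, limma adjusted p = 0.136). Igf2bp1, which encodes an RNA-binding protein of fetal tissues that binds Igf2 transcripts, read 6.19, 6.28 and 6.81 in WT and 5.78, 5.79 and 5.83 in ERRa KO kidneys. All ERRa KO values were lower, WT replicate 3 being the highest (change -0.63, SE 0.15, limma adjusted p = 0.146). Of 11 other genes of the growing organ, 8 read lower and 3 higher, with a median of -0.05. Limma called none, and the 4 at an unadjusted p under 0.05, where 12.4% of all genes had one, were all lower. The growth factor gene Mdk read -0.43 (limma adjusted p = 0.12) and Sox4, a transcription factor gene of progenitors, -0.25 (limma adjusted p = 0.292).

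**Figure D4:**
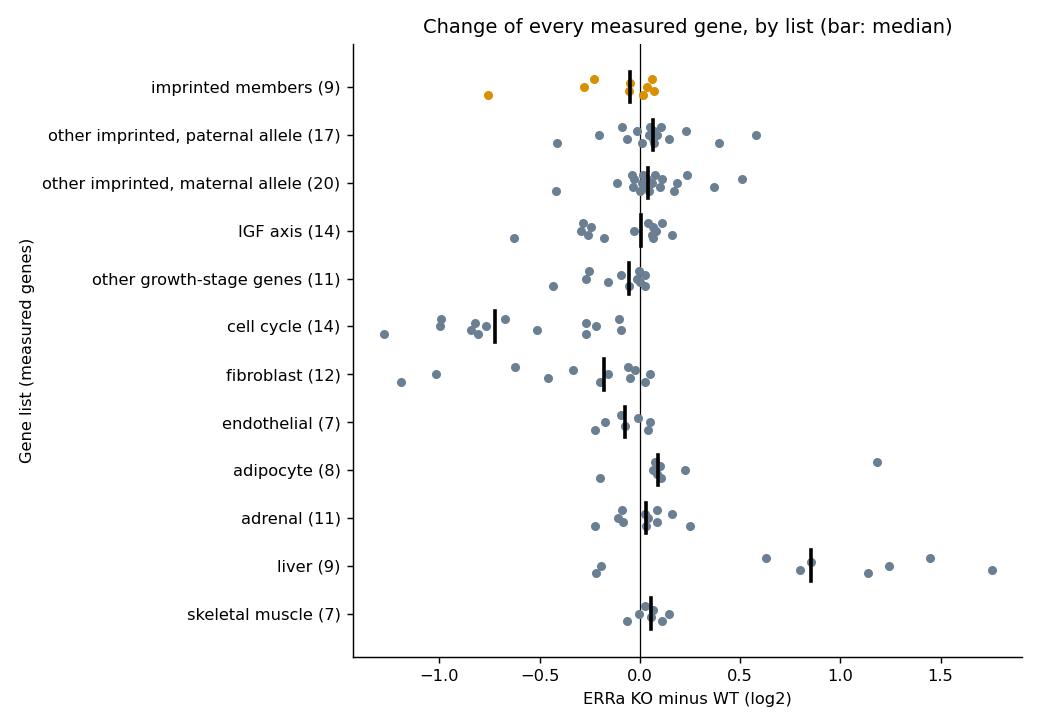
Change of every measured gene (ERRa KO minus WT, log2; 1 point per gene) by list, with the median as a black bar and the number of measured genes in brackets. The members' median is -0.05, while that of the cell cycle list is -0.72 and that of the liver list 0.85.

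Markers of cycling cells and of other cell types were read beside these values. All 14 measured cell cycle genes read lower, where 47.4% of all genes did. Limma called 3 of the 14, where it called 0.495% of all genes: Mki67 at -0.99, Top2a at -1.28 and Pbk at -0.82. The mean level of the 14 was 5.77 to 6.15 on WT and 5.23 to 5.43 on ERRa KO arrays. The list's median without ERRa KO replicate 3 was -0.68. Of 12 fibroblast genes 10 read lower and 2 passed limma's threshold, the collagen genes Col3a1 at -1.19 and Col1a2 at -0.62, with a mean level of 7.10 to 7.29 on WT and 6.71 to 6.92 on ERRa KO arrays. The part of either list in the values of Airn, Peg3 and Grb10 was not tested. Limma called 0 genes of the other marker lists, and unadjusted p was under 0.05 for 12.4% of all genes. Of the endothelial genes 2 read higher and 5 lower, and of the adipocyte genes 7 and 1. It was 7 and 4 for adrenal, 5 and 2 for skeletal muscle, and 7 and 2 for liver genes. Endothelial genes, with 2 at an unadjusted p under 0.05 (Tek at -0.22 and Plvap at -0.17), had a mean level of 8.27 to 8.41 on WT and 8.19 to 8.32 on ERRa KO arrays. Adipocyte genes, also with 2 (Ucp1 at 1.18 and Lep at 0.22), lay at 6.67 to 7.03 and 6.98 to 7.18, and adrenal genes, with 2 as well (Chga at 0.25 and Pnmt at -0.22), at 4.66 to 4.68 and 4.65 to 4.72. Skeletal muscle genes, with 0 at an unadjusted p under 0.05, lay at 4.10 to 4.26 and 4.18 to 4.25, with Tnni2 at 0.11 and Myh4 at 0.15. Liver genes, with 1 (Apob at 0.63, followed by Ahsg at 1.14), lay at 6.45 to 6.58 on WT and 6.34 to 9.08 on ERRa KO arrays, and their median was -0.06 without ERRa KO replicate 3.

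The genes whose values over the 6 arrays were most like those of Airn were Gpr137b-ps, Asb9, Mapkapk3, Lmtk3 and Tiam2, with Pearson correlations of 0.996, 0.996, 0.993, 0.993 and 0.993. These are descriptions over 6 arrays in 2 groups, and 114 genes exceeded 0.95. The 5 were picked for likeness to Airn, which read lower in ERRa KO, so their own lower direction followed from the choice. Of the 5, Tiam2, which encodes an exchange factor for the GTPase Rac, fell (6.26 ± 0.09 against 5.59 ± 0.15, SD, n = 3 each; change -0.67, SE 0.09, limma adjusted p = 0.033). Asb9, a ubiquitin ligase adaptor gene, read -0.39 (limma adjusted p = 0.0933). Mapkapk3 (-0.30), Lmtk3 (-0.26) and Gpr137b-ps (-0.09) did not pass either.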

How the data were processed

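Whole-kidney RNA of 3 WT and 3 ERRa KO males was read on Affymetrix arrays. The authors deposited log2 values, made with RMA per the submitters' processing notes; its settings are not given in the sources. RMA corrects background, equalises the arrays and compresses low levels. The authors' deposited table adds a log2 fold change and an unadjusted p-value, with the test unnamed in the file header. Groups came from the sample labels of the series table.

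Of 45101 probe sets, 64 controls were left out; the platform annotation names 1 gene for 34945, several for 932 and none for 9160. Symbols of 34741 were found by identifier in the GRCm38.p6 gene table. The probe set of highest mean stood for a gene. Genotype was tested with limma 3.58.1 in R 4.3.3 (lmFit, eBayes, two-sided), Benjamini-Hochberg adjusted over 18193 genes, or over 45037 probe sets in a separate fit, from which unadjusted p-values of member probe sets come. The threshold was an adjusted p under 0.05, with no filter on low values. With 3 arrays per genotype, precision is limited. The labels call the replicates biological without naming animals; no 2 arrays shared over 131 identical values. The fit was tested on simulated data. Promoters are from RefSeq (9 of 10 members matched).

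Named were the members, from each other list up to 4 called genes or the 2 of smallest p, called neighbours, and the 5 genes most like the member of smallest p. Cdkn1c, Kcnq1, Copg2, Zim1, Slc38a4, Igf2os, Mas1, Slc22a2 and Alb were added after their values were seen. Members and lists were chosen with earlier results of these data known. Alternatives were a replicate block, array weights, renewed quantile normalization, a variance trend, a level filter, an equal-variance test, averaged probe sets and leaving out each array.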

Additional observations from a re-analysis of the deposited data

How the results depend on the processing

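Of 125 repeats of a member's change, 109 kept direction and side of the threshold, 8 lost the Airn call and 8 turned sign. The sign turned only for members near 0. Dlk1 read -0.022 with array weights and -0.068 to 0.078 when an array was left out, below 0 without the third array of either genotype. Meg3 read -0.020 with averaged probe sets and -0.0050 (without WT replicate 3) to 0.17 when an array was left out. Plagl1 read 0.065 with averaged probe sets and -0.11 to 0.031 (without WT replicate 3) when an array was left out, and Igf2 0.069 with averaged probe sets. Member genes called, 1 in the report, were 0 with the replicate block (Airn adjusted p = 0.0908), with the equal-variance test (0.243) and with averaged probe sets, and 0 to 1 when an array was left out. Member probe sets called, 0 in the report, were 1, the brightest of Airn, with array weights, renewed quantile normalization, a variance trend and the level filter, and 0 whichever array was left out. All genes called, 90 in the report, were 18 with the replicate block, 309 with a trend, 220 above the median level, 0 by the equal-variance test (2040 with an unadjusted p under 0.05) and 10 to 39 without an array. All probe sets called, 50 in the report, were 3 with the block, 92 with weights, 364 with a trend, 143 above the median level, 0 by the equal-variance test (4284 unadjusted) and 7 to 35 without an array. Same-numbered arrays did not deviate together (correlations -0.039, -0.0031 and -0.078), so the numbers were not taken as pairs. The causes of these shifts were not tested. Dim probe sets, such as those of H19 and Mest, limit what could be seen.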
